A study of Homo sapiens with 6 samples.

Results

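The genes described here code for homologous recombination and for the Fanconi anaemia pathway, followed in U87 cells with raised miR-151a. A list of 37 such genes was matched by symbol, updated through Entrez identifiers, to probe sets whose annotation names 1 gene only. In this way 33 of the 37 were measured, among 18132 genes on the array, and RBBP8, BRCA2, FANCA and FANCD2 were not analysed here. Each gene is represented by the probe set with the highest mean log2 level over all 6 samples, and the 80 probe sets of the 33 genes served as a check.

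The cells are U87, an established human glioblastoma line. The study compared 3 samples that overexpressed the microRNA miR-151a, labelled miR-151a UP, with 3 samples that overexpressed the control microRNA miR-NC. The labels give no drug treatment, time point or arm of miR-151a, and nothing in them tells whether samples came from separate cultures; the p-values then reflect only how these arrays vary, possibly for technical reasons. Values are 1-colour Affymetrix probe set intensities on a linear scale, and a fold change is a difference of log2(intensity + 1), miR-151a minus miR-NC. Precision is limited by having 3 arrays a group, with a median SD within groups of 0.072 (log2) for the 33 genes. Median intensities of the 6 arrays ran from 57.1 to 58.6 and lower quartiles from 14.9 to 15.6. Of 9 glial and glioma markers, 1 fell and 0 rose in limma (3 and 0 at an unadjusted p under 0.05). The intermediate filament gene NES fell from a mean intensity of 165.7 ± 4.56 to 133.9 ± 6.75 (SD, n = 3 each; log2 fold change -0.31, adjusted p = 0.0079), while CD44 and SLC1A3 were at -0.16 and -0.18 without overlap and did not pass (adjusted p = 0.11 and 0.065). With miR-NC, VIM and CD44 had mean intensities of 19019 ± 484 and 6332 ± 271 (SD, n = 3), GFAP had 63.2 ± 0.592 (SD, n = 3), and the astrocyte water channel AQP4, at 14.4 ± 2.11 (SD, n = 3), lay near the lower quartile. The part of NES or the other markers in the results was not tested. Of 7 immune markers 0 passed in limma (1 had an unadjusted p under 0.05). PTPRC and CD14 were under the lower quartile on each array, and the means of the other 5 exceeded it: TYROBP, CD3E, AIF1 and ITGAM had mean intensities of 74.7, 30.6, 25.5 and 16.6 with miR-NC, and CD68, which is not confined to immune cells, had 1004. ITGAM was at 22.7 with miR-151a, with no overlap (log2 fold change 0.42, adjusted p = 0.058). These levels do not show that immune transcripts were absent.

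Homologous recombination repairs a broken chromosome by copying an intact sister sequence. The broken ends are resected to single strands, BRCA1, PALB2 and BRCA2 load a recombinase on them with the help of its paralogues, motor proteins drive strand exchange, and helicases and nucleases separate the joined molecules. The Fanconi pathway acts on crosslinks between the strands: a core complex with the E2 enzyme UBE2T ubiquitinates the FANCD2 and FANCI pair, which brings in nucleases and hands the break to recombination. Many of these genes are transcribed mainly in the S and G2 phases of the cell cycle.

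More of these genes were lower than higher with miR-151a, and the largest change among them was a rise, that of the helicase gene BLM. Of 33 genes, 11 fell and 4 rose in limma at a threshold of 0.05 on p-values adjusted over all genes by Benjamini-Hochberg. These are 33.3% and 12.1% of the genes, where 8.11% and 7.27% of all genes on the array fell and rose. The median log2 fold change was -0.16, against -0.01 over all genes, and 24 of the 33 genes had a value below 0, which is 72.7% against 52.6% of all genes. The 11 genes that fell were XRCC2, FANCB, RAD54L, RMI2, UBE2T, RMI1, EXO1, EME1, BARD1, FANCG and FANCL, with log2 fold changes from -0.39 to -0.16. The 4 genes that rose were BLM, RAD52, RAD54B and MUS81, from 0.21 to 0.62. For 20 genes, or 60.6%, all samples of 1 group lay on 1 side of the other, against 34.5% of all genes. Of the 33 genes, 16 were lower without overlap and 4 higher. Over all genes on the array, 19.4% were lower without overlap and 15.1% higher.

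**Figure D1:**
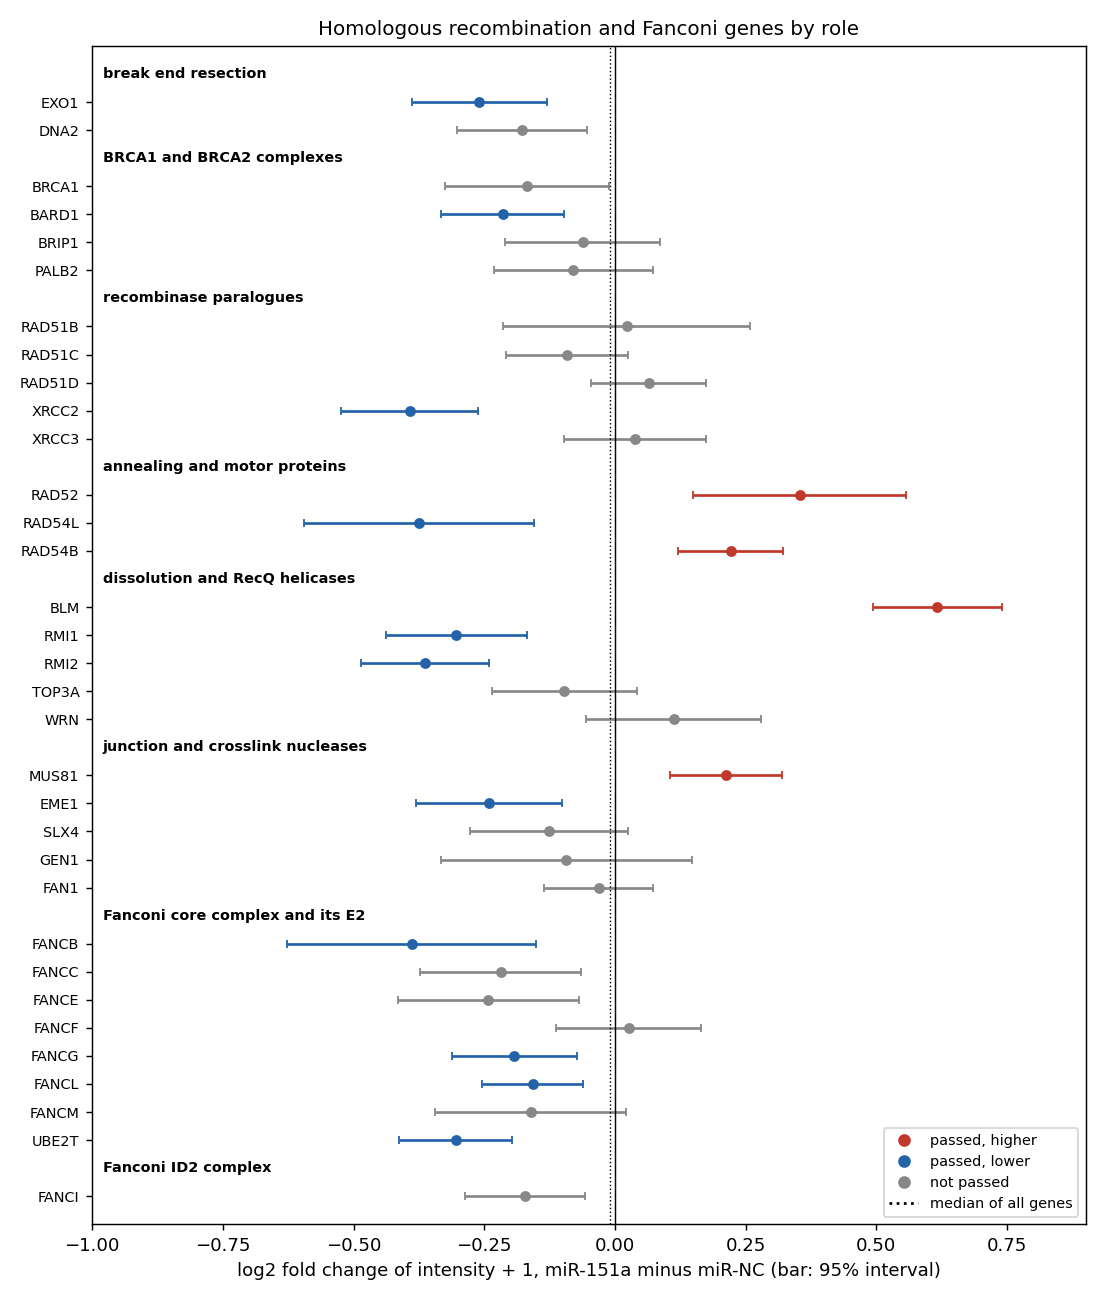
Log2 fold changes of the 33 measured genes, grouped by role, as miR-151a minus miR-NC on the log2(intensity + 1) scale; points are limma estimates, bars their 95% intervals, and the dotted line the median of all genes at -0.01. BLM stands farthest to the right at 0.62, and 11 genes that passed lie to the left of 0.

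Counts were lower with 1 sample left out, over the whole array too. Without miR-151a replicates 1, 2 and 3 the 11 falls became 5, 6 and 7, and without miR-NC replicates 1, 2 and 3 they became 6, 4 and 4. In the same order the 4 rises became 4, 2 and 2, and then 1, 2 and 3. The share of all genes on the array called lower went from 8.11% to 5.05%, 5.63% and 5.18%, and then to 4.57%, 4.53% and 4.41%. The share called higher went from 7.27% to 6.08%, 5.47% and 5.16%, and then to 5.05%, 4.89% and 5.07%. The genes XRCC2, RMI1, RMI2, UBE2T and BLM kept their direction and their call in each of the 14 alternatives run, 5 of the 15 that passed. The other 10 kept their direction in each and lost the call in at least 1.

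Promoter sequences of 6 of these genes are shown as a description, and their part in the changes was not tested. They come from BLM and RMI1 of 1 complex, MUS81 and EME1 of 1 nuclease, the motor protein gene RAD54L, and UBE2T, the pathway's E2 gene. Each is the 250 bases before the RefSeq start on GRCh38.p14, written in the direction of transcription. The BLM window is chr15:90717096-90717345, plus strand, and the RMI1 window is chr9:83980109-83980358, plus strand. The MUS81 window is chr11:65860183-65860432, plus strand, and the EME1 window is chr17:50372979-50373228, plus strand. The RAD54L window is chr1:46247438-46247687, plus strand, and the UBE2T window is chr1:202341937-202342186, minus strand. For RMI1 and RAD54L, which have 2 listed starts, the window of the upstream start is shown. Capitals mark matches on either strand to TTCCCGC or TTGGCGC, forms of the E2F site found in S phase genes, to TTTGAA, the CHR element of mitotic genes, or to CCAAT, the box bound by NF-Y; the reverse of TTGGCGC ends in CCAA and can overlap a CCAAT match.
BLM: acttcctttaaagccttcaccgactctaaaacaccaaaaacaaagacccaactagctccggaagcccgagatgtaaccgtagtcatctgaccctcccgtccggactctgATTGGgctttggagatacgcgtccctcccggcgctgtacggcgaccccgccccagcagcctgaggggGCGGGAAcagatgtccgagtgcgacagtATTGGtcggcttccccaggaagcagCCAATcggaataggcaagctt
RMI1: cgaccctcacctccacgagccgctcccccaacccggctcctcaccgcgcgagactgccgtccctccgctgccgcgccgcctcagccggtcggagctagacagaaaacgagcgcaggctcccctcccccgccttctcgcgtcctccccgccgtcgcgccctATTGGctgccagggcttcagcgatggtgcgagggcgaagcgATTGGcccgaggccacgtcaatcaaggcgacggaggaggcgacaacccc
MUS81: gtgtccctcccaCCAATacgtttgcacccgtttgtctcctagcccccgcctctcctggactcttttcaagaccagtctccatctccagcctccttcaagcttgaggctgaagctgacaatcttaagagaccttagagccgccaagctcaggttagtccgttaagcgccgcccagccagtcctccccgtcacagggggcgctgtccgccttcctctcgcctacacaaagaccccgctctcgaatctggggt
EME1: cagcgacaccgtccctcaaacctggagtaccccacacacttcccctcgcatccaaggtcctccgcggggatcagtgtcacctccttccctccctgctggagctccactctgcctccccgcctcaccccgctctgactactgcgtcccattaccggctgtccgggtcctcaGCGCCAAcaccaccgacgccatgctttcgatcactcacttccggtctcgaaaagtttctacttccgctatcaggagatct
RAD54L: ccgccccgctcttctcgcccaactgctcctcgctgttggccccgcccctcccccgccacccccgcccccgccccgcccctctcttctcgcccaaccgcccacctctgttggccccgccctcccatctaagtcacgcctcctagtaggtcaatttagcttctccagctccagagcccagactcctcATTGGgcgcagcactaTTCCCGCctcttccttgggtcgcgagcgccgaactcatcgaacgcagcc
UBE2T: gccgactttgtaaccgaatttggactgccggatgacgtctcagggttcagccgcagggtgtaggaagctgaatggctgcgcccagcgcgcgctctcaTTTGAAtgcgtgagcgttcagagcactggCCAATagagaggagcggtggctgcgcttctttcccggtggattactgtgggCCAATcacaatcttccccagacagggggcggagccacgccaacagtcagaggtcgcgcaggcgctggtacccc
In BLM, an E2F form begins 74 bases before the start, and CCAAT matches begin 141, 46 and 21 bases before it; beyond the printed stretch, 2 more E2F forms begin in the first 50 bases after the start. The RAD54L window holds an E2F form at 49 bases and the EME1 window one at 80 bases before the start. The windows shown for RMI1 and MUS81 hold CCAAT matches and no other (the second RMI1 window has an E2F form 20 bases before its start), and that of UBE2T holds CCAAT and CHR matches.

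Over windows of 300 bases, from 250 bases before the start to 50 after it, 28 of the 33 genes matched the RefSeq table, with 39 windows. An E2F form was present in 19 of the 39 windows, or 48.7%, against 9.23% of the 35116 windows in the table and 11.7% of the 20403 windows of genes on the array. It was found in at least 1 window of 7 of 10 genes that fell, 2 of 3 that rose and 7 of 15 that did not pass. Counted the same way, 15.2% of the 14425 genes of the array with a window held it, as did 25.1% of the 1211 called lower and 14.8% of the 1072 called higher. CCAAT was present in 13 of 39 windows (33.3%, against 34.6% of all windows) and TTTGAA in 3 of 39 (7.69% against 15.2%). A match is a description of the letters and not a measured binding site.

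**Figure D2:**
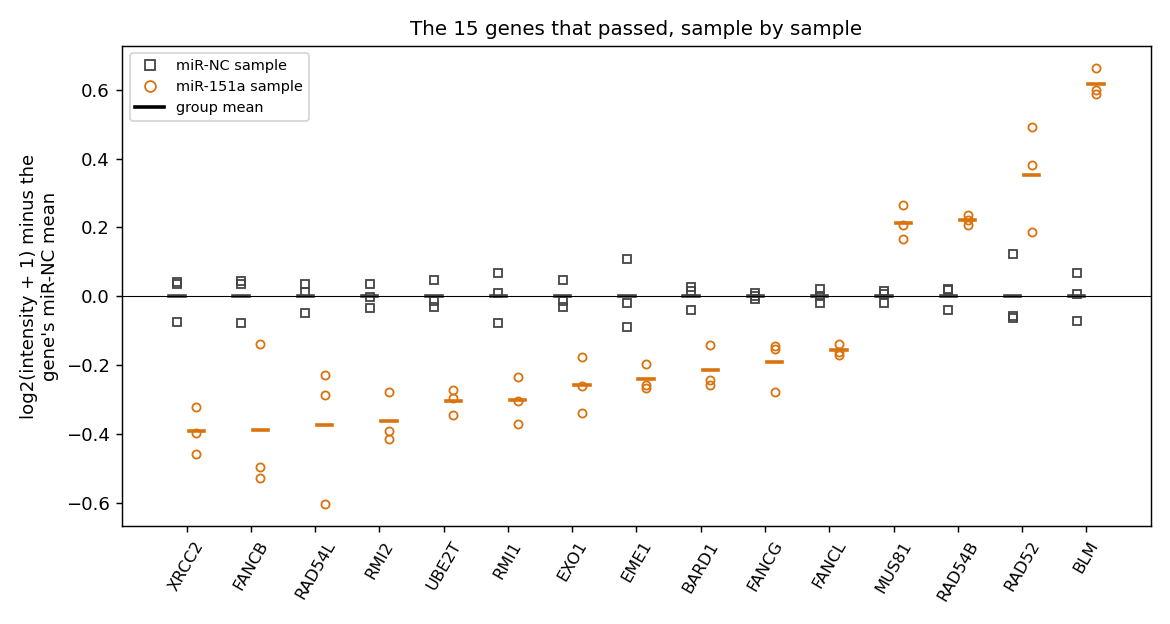
Each sample's log2(intensity + 1) minus the gene's miR-NC mean, for the 15 genes that passed; squares are miR-NC samples, circles miR-151a samples and lines group means. The groups do not overlap for any of the 15, and the miR-151a samples of RAD54L, FANCB and RAD52 are the most spread.

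Both measured resection genes had lower means with miR-151a, and 1 passed. EXO1, an exonuclease that trims broken ends over long stretches, had intensities of 124, 139 and 131 with miR-151a and of 154, 156 and 162 with miR-NC. All 3 miR-151a samples lay below all 3 controls, with a fall of 16.4% (log2 fold change -0.26, 95% interval -0.39 to -0.13, limma adjusted p = 0.019). The call was lost when miR-151a replicate 1, miR-151a replicate 3 or a control other than replicate 1 was left out, with adjusted p from 0.051 to 0.070. DNA2, the nuclease and helicase that shares this step, had intensities of 82.1, 88.9 and 90.1 against 96.9, 96.7 and 102. Its groups did not overlap, and it did not pass (log2 fold change -0.18, adjusted p = 0.063). Its dimmer probe set fell by 0.31 on the log2 scale, past the threshold over all probe sets (adjusted p = 0.018).

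Among the genes that load the recombinase, 1 of 4 passed. BARD1, the partner of BRCA1 in a ubiquitin ligase, had intensities of 164, 166 and 178 with miR-151a and of 191, 200.3 and 199 with miR-NC. The groups did not overlap, and the fall was 13.8% (log2 fold change -0.21, 95% interval -0.33 to -0.10, limma adjusted p = 0.028). That call was lost when miR-151a replicate 1 or 2, or any 1 control, was left out, with adjusted p from 0.055 to 0.095. BRCA1 itself had intensities of 281, 256 and 265 against 328, 293 and 282, so that the nearest samples of the groups almost touched. It did not pass (log2 fold change -0.17, 95% interval -0.33 to -0.01, adjusted p = 0.15). Of its 5 probe sets, all had values below 0, and 1 fell past the threshold over probe sets, at -0.24. PALB2, which joins BRCA1 to BRCA2, and the helicase gene BRIP1 had log2 fold changes of -0.08 and -0.06 with overlapping groups, and their 95% intervals ran from -0.23 to 0.07 and from -0.21 to 0.09.

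The recombinase paralogues were split between 1 fall and 4 genes that did not pass. XRCC2 had intensities of 84.9, 88.7 and 93.5 with miR-151a and of 111, 121 and 120.1 with miR-NC. Its groups stood clear of each other, with a fall of 23.8% (log2 fold change -0.39, 95% interval -0.52 to -0.26, limma adjusted p = 0.0037). The second XRCC2 probe set was at -0.36 (standard error 0.12) and did not pass over probe sets (adjusted p = 0.080). RAD51B, RAD51C and RAD51D, which form a complex with XRCC2, had log2 fold changes of 0.02, -0.09 and 0.06, and XRCC3, which pairs with RAD51C, had 0.04. The groups of these 4 genes overlapped, their 95% intervals all included 0, and 0 of their 14 probe sets passed in limma (0 had an unadjusted p under 0.05).

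Annealing and motor protein genes all passed, in opposite directions. RAD52, which anneals single strands, had intensities of 55.2, 63.4 and 68.4 with miR-151a and of 46.5, 46.2 and 52.7 with miR-NC. Its groups were close but did not overlap, and it rose by 27.7% (log2 fold change 0.35, 95% interval 0.15 to 0.56, limma adjusted p = 0.033). All 12 of its probe sets had values above 0, from 0.08 to 0.53, and 6 rose past the threshold over probe sets. These probe sets share the same samples and are dim, with mean intensities from 13.7 to 55.4, where the array medians were 57.1 or more. The largest changes that passed, 0.53 and 0.43, had mean intensities of 24.1 and 17.7. With a pseudocount of 32, the brightest probe set was at 0.23 and passed. The call on the brightest one was lost when miR-151a replicate 2, miR-151a replicate 3 or a control other than replicate 3 was left out, with adjusted p from 0.088 to 0.10.

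RAD54L and RAD54B code for related motor proteins that act in strand exchange, and they moved apart. RAD54L, whose promoter is printed above, had intensities of 124, 161 and 154 with miR-151a and of 190.4, 182 and 194 with miR-NC. The groups did not overlap, and miR-151a replicate 1 was the lowest sample by a wide margin; the fall was 22.9% (log2 fold change -0.37, 95% interval -0.59 to -0.15, limma adjusted p = 0.035). RAD54B had intensities of 282, 288 and 285 against 238, 248 and 248. Its miR-151a samples lay close together and above every control, a rise of 16.6% (log2 fold change 0.22, 95% interval 0.12 to 0.32, adjusted p = 0.013). RAD54L did not pass without miR-151a replicate 3 or any 1 control (adjusted p from 0.057 to 0.10), and RAD54B did not without miR-NC replicate 1 (adjusted p = 0.052). A dimmer probe set that names both RAD54B and FSBP was at 0.18 (95% interval -0.01 to 0.38).

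The complex that dissolves joined molecules showed the widest spread. BLM, its RecQ helicase, had intensities of 217, 227 and 215 with miR-151a and of 136, 149.6 and 143 with miR-NC. Every miR-151a sample was well above every control, and BLM rose by 53.3% (log2 fold change 0.62, 95% interval 0.49 to 0.74, limma adjusted p = 0.00041). It has 1 probe set here, so no other probe set bears on this value. RMI1, a subunit that binds BLM and the topoisomerase TOP3A, had intensities of 235, 224 and 214 against 290.0, 262 and 278. Its samples with miR-151a were all below the controls, a fall of 18.9% (log2 fold change -0.30, 95% interval -0.44 to -0.17, adjusted p = 0.012). Of the 4 RMI1 probe sets, 3 fell past the threshold over probe sets and the fourth was at -0.24.

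RMI2, the small subunit beside RMI1, had intensities of 234, 216 and 213 with miR-151a and of 278, 292 and 284 with miR-NC. These groups were also separate, with a fall of 22.2% (log2 fold change -0.36, 95% interval -0.49 to -0.24, limma adjusted p = 0.0038). TOP3A, the topoisomerase of the complex, did not pass, at -0.10 (95% interval -0.23 to 0.04) with overlapping groups. WRN, another RecQ helicase, was at 0.11, with intensities of 172, 150.8 and 141 against 144, 140.1 and 143. Its miR-151a replicate 1 was the highest sample, and the interval from -0.06 to 0.28 included 0.

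Among the nucleases that cut joined or crosslinked molecules, 1 rose and 1 fell, and these 2 form 1 enzyme. MUS81, the catalytic subunit, had intensities of 410.3, 439 and 422 with miR-151a and of 369, 367 and 360.2 with miR-NC. All treated samples lay above all controls, a rise of 15.9% (log2 fold change 0.21, 95% interval 0.11 to 0.32, limma adjusted p = 0.020). EME1, a partner of MUS81, had intensities of 149, 156 and 148 against 168, 176 and 193. It fell by 15.4% with no overlap between groups (log2 fold change -0.24, 95% interval -0.38 to -0.10, adjusted p = 0.033). Either call was lost without some samples: MUS81 did not pass without miR-151a replicate 2, miR-151a replicate 3 or any 1 control (adjusted p from 0.056 to 0.074), and EME1 did not without any 1 miR-151a sample, miR-NC replicate 2 or miR-NC replicate 3 (adjusted p from 0.057 to 0.097). The scaffold gene SLX4, the Holliday junction resolvase gene GEN1 and the nuclease gene FAN1 did not pass, at -0.13, -0.09 and -0.03 with overlapping groups.

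The Fanconi core complex and its E2 held 4 of the 11 falls and 0 rises among 8 measured genes (0 rises also at an unadjusted limma p under 0.05). Of all genes on the array, 8.11% fell and 7.27% rose, and 12.8% rose at that unadjusted p. With 8 genes, 0 rises therefore does not set this group apart. UBE2T, the E2 enzyme of the pathway, had intensities of 1102, 1142 and 1161 with miR-151a and of 1371, 1387 and 1447 with miR-NC. The groups lay far apart relative to their spread, with a fall of 19.0% (log2 fold change -0.30, 95% interval -0.41 to -0.20, limma adjusted p = 0.0048). FANCL, the ubiquitin ligase subunit that works with UBE2T, had intensities of 1076, 1093 and 1069.6 against 1188, 1203 and 1221. Its groups did not overlap and the fall was small, 10.3% (log2 fold change -0.16, 95% interval -0.25 to -0.06, adjusted p = 0.042). Of its 3 probe sets, 1 passed over probe sets, a dimmer one at -0.25. The brightest and the other dimmer one, at -0.16, did not (limma adjusted p = 0.058 and 0.18).

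FANCB, a core subunit beside FANCL, had intensities of 71.4, 73.1 and 93.9 with miR-151a and of 107, 106 and 98.1 with miR-NC. It fell by 23.6% (log2 fold change -0.39, 95% interval -0.63 to -0.15, limma adjusted p = 0.041), with miR-151a replicate 3 close to the controls and no overlap. FANCG, another core subunit, had intensities of 234, 258 and 256 against 283, 287 and 285. The controls lay close together above every miR-151a sample, and the fall was 12.5% (log2 fold change -0.19, 95% interval -0.31 to -0.07, adjusted p = 0.043; 0.053 over probe sets). FANCG and FANCL each lost the call without any 1 of the 6 samples, with adjusted p from 0.059 to 0.12 and from 0.078 to 0.13. FANCB lost it without miR-151a replicate 1, miR-151a replicate 2 or any 1 control, with adjusted p from 0.070 to 0.12, and FANCL was at an adjusted p of 0.060 with quantile normalization, as was FANCB with array weights.

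The other core genes did not pass. FANCC and FANCE had log2 fold changes of -0.22 and -0.24 (adjusted p = 0.065 and 0.068), and their groups did not overlap. FANCE passed in 6 of the 14 alternatives and FANCC in 4. Without miR-151a replicate 3, FANCE was at -0.32 (limma adjusted p = 0.016), and without any other sample its adjusted p ran from 0.11 to 0.17. With the mean over probe sets, FANCE and FANCC were at -0.13 and -0.12 (limma adjusted p = 0.18 and 0.14). A dimmer FANCE probe set was at 0.05, and a dimmer FANCC probe set at -0.02. The translocase gene FANCM was at -0.16, with a 95% interval from -0.34 to 0.02, and FANCF was at 0.03, with an interval from -0.11 to 0.16. Dimmer FANCF probe sets were at -0.18 and -0.07 without overlap and did not pass over probe sets (limma adjusted p = 0.080 and 0.48). With the mean over probe sets, FANCF was at -0.07 (limma adjusted p = 0.26). FANCI, the measured member of the pair that the core complex ubiquitinates, had intensities of 378, 397 and 402 with miR-151a and of 425, 450.3 and 450.2 with miR-NC. All miR-151a samples were below the controls and the gene narrowly missed the threshold (log2 fold change -0.17, adjusted p = 0.055). All 3 FANCI probe sets had values below 0, and 1 of them, at -0.36, passed over probe sets.

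**Figure D3:**
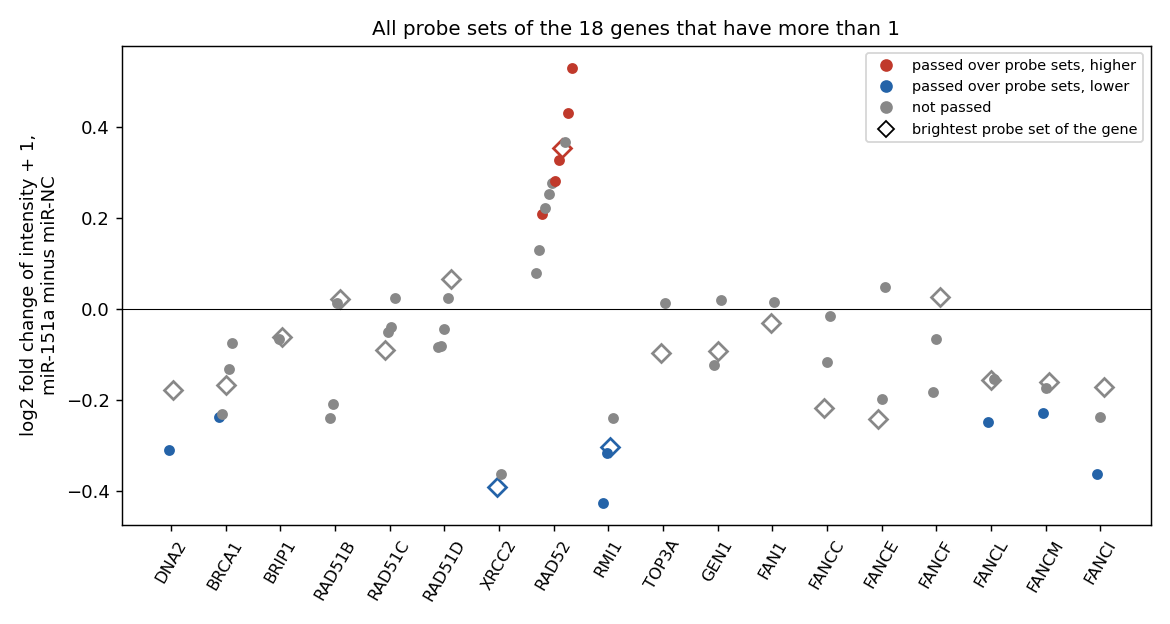
Log2 fold changes of all probe sets of the 18 genes with more than 1, as miR-151a minus miR-NC; diamonds are the brightest probe set of each gene and colours give the call over all probe sets. All 12 RAD52 probe sets lie above 0, and all 4 of RMI1, 5 of BRCA1 and 3 of FANCI lie below it. Those of RAD51B, RAD51C, RAD51D, TOP3A, GEN1, FAN1, FANCE and FANCF lie on both sides.

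Over all 80 probe sets, 16 fell and 9 rose past the threshold over probe sets, where 7.27% and 6.81% of all probe sets on the array did. Probe sets other than the brightest added 7 falls and 5 rises, and the rises were all of RAD52. Genes whose brightest probe set did not pass while another one fell were DNA2, BRCA1, FANCL, FANCM and FANCI. With the mean over probe sets in place of the brightest one, 15 genes fell and 4 rose, the falls joined by BRCA1, DNA2, FANCI and FANCM. In that fit 9.34% of all genes fell and 8.4% rose.

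Genes of 1 complex, and the related motor protein genes RAD54B and RAD54L, were set against each other by the difference of their log2 values in each sample, for 5 pairs chosen after their values were seen. The first 4 pairs join a gene that rose to one that fell, so their separation follows from that choice and is given as a description with no test. The difference BLM minus RMI1 was higher with miR-151a by 0.92 and BLM minus RMI2 by 0.98. MUS81 minus EME1 was higher by 0.45 and RAD54B minus RAD54L by 0.60. For BRCA1 minus BARD1, the difference changed by 0.05 with overlapping groups.

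**Figure D4:**
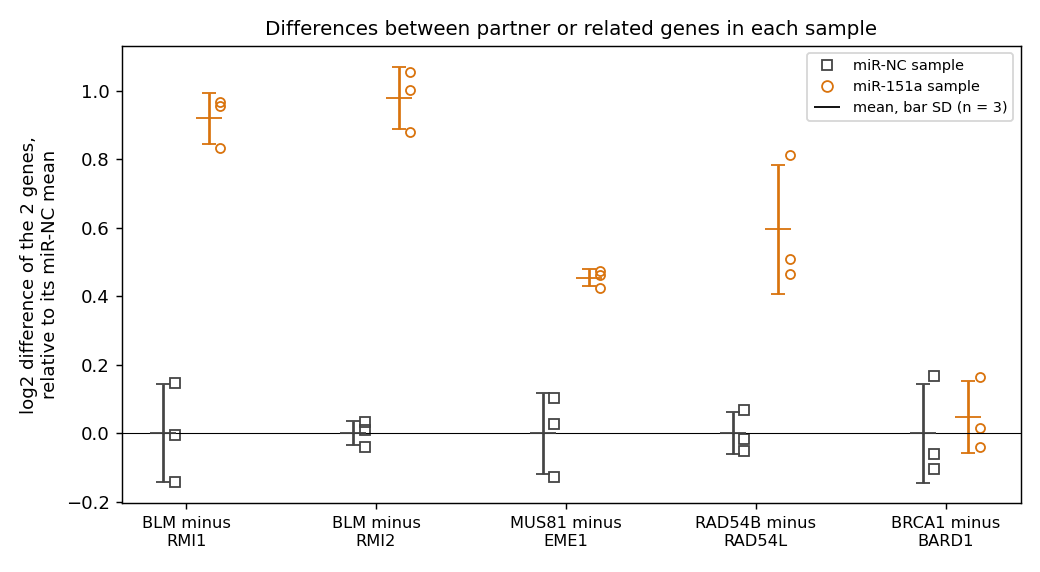
Difference of the log2 values of 2 genes in each sample, relative to its miR-NC mean; squares are miR-NC and circles miR-151a samples, and bars show mean and SD (n = 3). The miR-151a samples are above all controls for the first 4 pairs and mixed with them for BRCA1 and BARD1.

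The list of other genes of these pathways also held more falls than rises, though most did not pass. Of 47 measured genes, 14 fell and 2 rose past the threshold, and 31 did not pass. These are 29.8% lower and 4.26% higher, against 8.11% and 7.27% of all genes. The median log2 fold change was -0.06, and 61.7% had a value below 0, against 52.6% of all genes. PARPBP, which restrains recombination, had intensities of 267, 266 and 272 with miR-151a and of 374, 371 and 363 with miR-NC, and fell by 27.3% (limma adjusted p = 0.00054). MND1, a cofactor of strand exchange, and RAD51AP1, which stimulates it, had log2 fold changes of -0.42 and -0.44, and RPA1, the large subunit of the single-strand binding protein, had -0.37. Their groups did not overlap, with adjusted p of 0.00085, 0.0033 and 0.0047. The helicase gene HELQ rose by 44.7%, from 68.0, 64.0 and 62.0 to 90.7, 98.9 and 92.5 (adjusted p = 0.0010), and ERCC1, a nuclease subunit of crosslink repair, rose by 19.6% (adjusted p = 0.017). Without miR-151a replicates 1, 2 and 3 the 14 falls became 6, 8 and 6, and without miR-NC replicates 1, 2 and 3 they became 10, 7 and 5. The 2 rises became 1 without miR-NC replicate 2. In the fits without 1 sample, 4.41% to 5.63% of all genes were called lower and 4.89% to 6.08% higher.

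Markers of proliferating cells moved beside these genes. Of 16 markers, 14 fell and 0 rose past the threshold in limma (15 and 0 at an unadjusted p under 0.05), with a median log2 fold change of -0.33. The summed intensity of the 16 lay between 19322 and 19650 with miR-151a and between 23978 and 24269 with miR-NC, and none was at 0. CCNE2, a cyclin of S phase entry, CCNA2, a cyclin of S and G2, the proliferation antigen MKI67 and the mitotic kinase AURKA had log2 fold changes of -0.55, -0.53, -0.44 and -0.39. Whether the share of cells in cycle differed, and its part in the falls of the repair genes, was not tested. In bulk RNA, fewer cells that express a gene and less RNA per cell cannot be told apart.

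**Figure D5:**
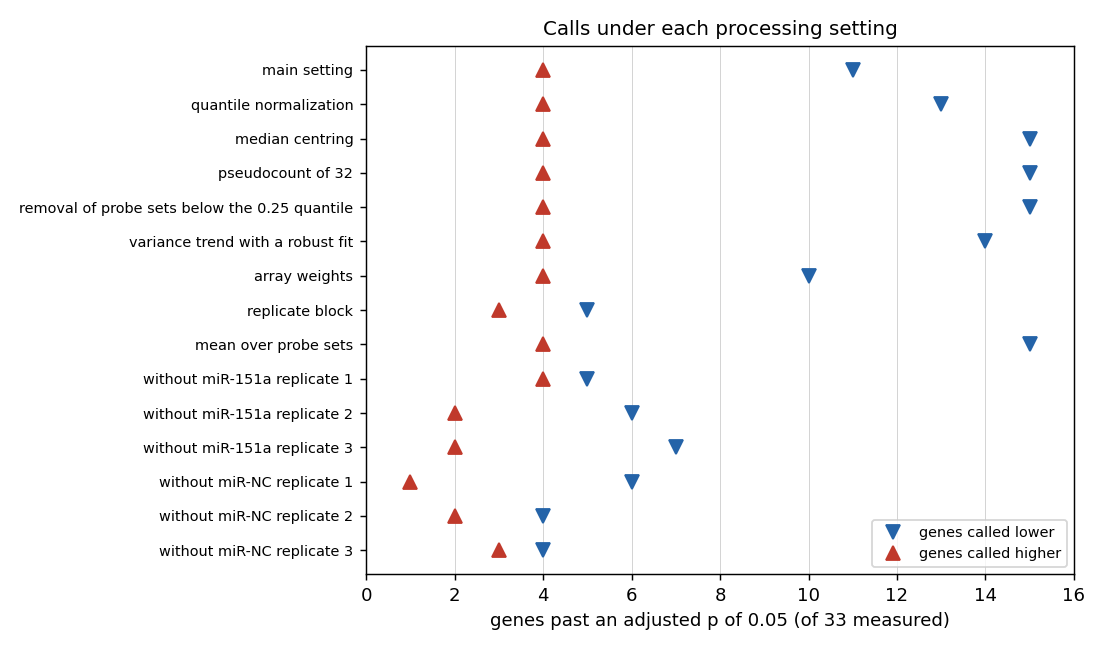
Number of the 33 genes called lower (downward triangles) and higher (upward triangles) under the main setting and each of 14 alternatives. Falls run from 4 to 15 and rises from 1 to 4, and the lowest counts come from the fits without 1 sample and, for falls, also with the replicate block at 5.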

How the data were processed

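RNA from 6 samples of U87 cells was measured on 1-colour arrays, 3 per group by sample title. The authors deposited linear intensities, 1 value per probe set and sample; the submitters' processing notes name MAS5, without its role; background correction and scaling: not given in the sources used here. The arrays had similar quantiles, so these values cannot show a shift common to most transcripts. Of 49395 rows, 102 control probe sets were dropped; of the rest, 44988 named 1 gene, 1832 several and 2473 none, and 44961 were matched to RefSeq by Entrez identifier.

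Values were transformed as log2(intensity + 1) and fitted over all 18132 genes with lmFit and eBayes of limma 3.58.1 (R 4.3.3) and no covariate; p-values were adjusted over all genes by Benjamini-Hochberg and called at 0.05; probe sets were fitted likewise. The fit was tested on simulated data. Figures were drawn with matplotlib 3.10.9. Tried as alternatives were array weights, median centring, quantile normalization, 32 as pseudocount, a filter at the 0.25 quantile of level, eBayes with a trend and robust variance, blocking on replicate number, averaging a gene's probe sets, and dropping each sample in turn. All 37 listed genes are accounted for; genes past the threshold are given with each sample's value, and of the other lists up to 4 genes per direction by smallest p. The genes and lists were chosen with earlier results of these data known. Promoter sequences are from RefSeq.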

Additional observations from a re-analysis of the deposited data

How the results depend on the processing

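The direction of each of the 15 genes that passed was kept in all 14 alternatives, and 5 also kept the call; of the 18 others, 6 passed in at least 1 alternative and 12 in none. Array weights, median centring, quantile normalization, the trend fit, the filter on dim probe sets, the pseudocount of 32 and the mean over probe sets gave between 10 and 15 falls and 4 rises. Under these settings 8.36% to 13.2% of all genes were called lower and 6.55% to 10.7% higher. Leaving out 1 sample gave 4 to 7 falls and 1 to 4 rises, and for the other pathway genes 5 to 10 falls and 1 to 2 rises; these fits hold fewer samples, and over all genes 4.41% to 5.63% were called lower and 4.89% to 6.08% higher, against 8.11% and 7.27%. The median log2 fold change of the genes stayed between -0.17 and -0.14 there. The rises among other pathway genes became 4 with a pseudocount of 32 and 4 with the trend fit, where 9.64% and 10.2% of all genes were called higher and 12.2% and 13.2% lower.

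Same-numbered samples did not deviate together (correlations of -0.106, -0.151 and 0.0656), and differently numbered samples reached 0.158. With 3 samples a group, these values cannot tell whether samples shared a culture or a batch, and the labels name no pairing. With the replicate block, 5 of the 33 genes fell and 3 rose, and 7 of the other pathway genes fell and 1 rose. The calls of BARD1, EME1, FANCB, FANCG, FANCL, MUS81 and RAD54L were lost with the block. Of all genes, 4.53% fell and 4.99% rose in that fit.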
